A study of Mus musculus with 2 samples.

Results

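Wars and Slc25a29, Capns1 and Tbcb, Mtap6 and Rps3, and Pld4 and Nudt14 are 4 pairs of genes that lie next to or near each other on mouse chromosomes 12 and 7. These 8 genes were taken by name and interval from the 53 candidate imprinted genes that the study listed in a supplementary table. An imprinted gene is transcribed mainly from the copy inherited from the mother or mainly from the copy inherited from the father. Many known imprinted genes sit in clusters that share a control region, which is why neighbouring candidates are of interest. A reciprocal cross, in which the strains of mother and father are exchanged, separates the parent of origin of an allele from its strain.

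The data were 2 poly(A)+ RNA-Seq libraries of whole brain at embryonic day E17.5, each from a single F1 hybrid brain. The BxC library came from a C57BL/6J mother and a CastEi/J father, and the CxB library from a CastEi/J mother and a C57BL/6J father. The candidates had been listed from brain samples of several ages, and those other than E17.5 were not analysed here. The 2 F1 brains carry the same pair of autosome sets in opposite parental order. For genes on autosomes, such as these, a change of expressed allele therefore need not change the total level. The alignments held positions and read counts but no bases, and no allelic value was made.

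The BxC library held 128944754 aligned reads of 36 bases and the CxB library 109719746. Spliced reads made up 6.47% and 6.20% of them, in that order, and reads outside annotated genes 10.4% and 10.6%. All pairs of values below are given as BxC, then CxB. Each cross was represented by a single library, so that no spread between replicates could be measured and cross, embryo, library and sequencing cannot be told apart. The methods name the CxB brain as male and list BxC brains of both sexes, and chromosome Y held 1852 reads in BxC and 18212 in CxB. These counts point to a difference of sex between the libraries, which cannot be told apart from cross either. No test across crosses was possible, and every interval given is an exact 95% interval that covers counting error only. PCR copies of a molecule were not marked, so the reads are not independent molecules. Levels are given as RPKM, the reads that overlap the exons of a gene, per kilobase of exon and per 1000000 aligned reads. RPM is the same value without the length. Summed over marker lists, 5 neuronal genes reached 1431 and 1308 RPKM, 4 radial glial genes 139 and 140, 4 endothelial genes 30.2 and 30.3, 11 microglial genes 34.9 and 35.8, and 4 erythroid genes 279 and 227. As the lists differ in size, the sums do not rank the cell types. The neuronal markers Tubb3 and Stmn2 were the highest of their list, and of the erythroid markers Hbb-bh1 was at 0 in both libraries.

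The 8 members spanned more than an order of magnitude in level. Mtap6, Tbcb, Capns1 and Rps3 were high, Wars and Nudt14 intermediate, and Slc25a29 and Pld4 low. Mtap6 stood at 48.4 and 46.6 RPKM, Tbcb at 46.8 and 42.9, Capns1 at 46.6 and 45.4, and Rps3 at 38.3 and 33.6. Of 13884 protein-coding genes with at least 100 reads in each library, whose median was 5.44 RPKM in both, these 4 lay above the 91st percentile. In BxC the counting intervals of Tbcb, 45.8 to 47.8, and Capns1, 45.8 to 47.4, overlapped, while in CxB they did not. Wars stood at 20.8 and 21.3 RPKM, Nudt14 at 13.0 and 9.98, Slc25a29 at 3.60 and 3.80, and Pld4 at 1.66 and 1.72. The last of these was at the 20.8th and 21.4th percentile.

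**Figure D1:**
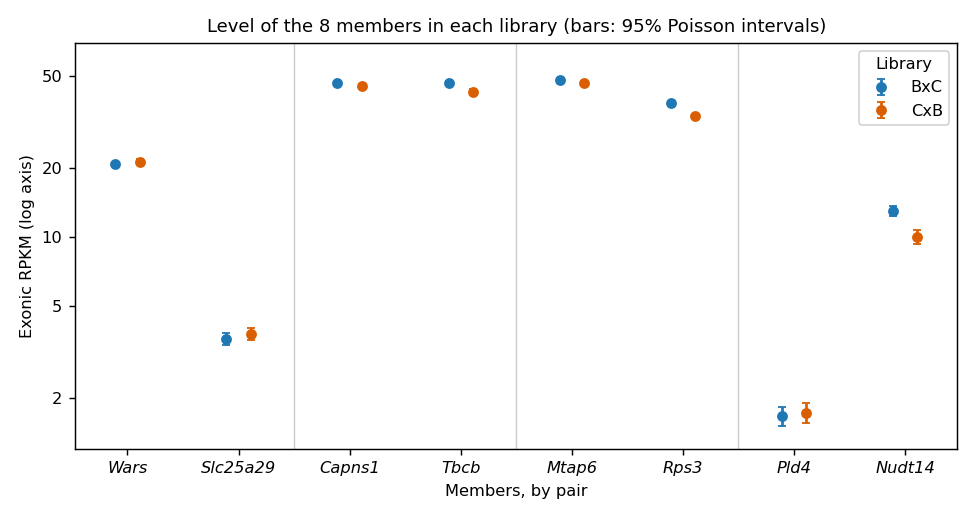
Exonic level of the 8 members in RPKM on a log axis, with grey lines between the 4 pairs. Points are single libraries (blue, BxC and orange, CxB) and bars are 95% Poisson intervals of the count. The members run from 1.66 RPKM for Pld4 to 48.4 for Mtap6 in BxC.

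Within pairs, the level of the first gene over that of the second was far from even for Wars with Slc25a29 and for Pld4 with Nudt14, and close to even for Capns1 with Tbcb. Wars exceeded Slc25a29 by 5.78-fold in BxC and 5.60-fold in CxB, a log2 difference of 2.53 (2.44 to 2.62) and 2.49 (2.39 to 2.58). Capns1 over Tbcb gave a log2 difference of -0.01 (-0.04 to 0.03) and 0.08 (0.04 to 0.12), but over the exons of protein-coding transcripts alone it was 0.41 and 0.49, with Capns1 at 63.4 and 61.3 RPKM and Tbcb at 47.6 and 43.6. Mtap6 over Rps3 gave 0.34 (0.32 to 0.36) and 0.47 (0.44 to 0.50). The order of that pair depended on which exons entered: over the exons of protein-coding transcripts alone, Mtap6 stood at 60.2 and 57.2 RPKM and Rps3 at 89.6 and 78.7, so that Rps3 was the higher. Pld4 was below Nudt14 by 7.80-fold and 5.80-fold, a log2 difference of -2.96 (-3.12 to -2.80) and -2.54 (-2.72 to -2.36). Over all 47596 pairs of protein-coding genes within 200 kb of each other, the median size of the log2 difference was 1.79 in either library. Wars with Slc25a29 lay at the 65.3rd and 64.5th percentile of these sizes, Pld4 with Nudt14 at the 72.5th and 65.4th, Mtap6 with Rps3 at the 10.3rd and 14.2nd, and Capns1 with Tbcb at the 0.179th and 2.41st. The counting intervals do not cover the choice of unit: over distinct positions, with reads at the same position counted once, the log2 difference was 1.51 and 1.52 for Wars with Slc25a29, 1.65 and 1.61 for Mtap6 with Rps3, and -1.53 and -1.70 for Pld4 with Nudt14. The number of distinct positions has a ceiling set by exon length, so this unit holds down the count of densely covered exons. In Rps3, exon 2 of 131 bases held 244 and 237 positions.

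Between the crosses, none of the 8 members passed the ratio of 1.5 that was used as a call. Of 15427 annotated genes with at least 100 reads in each library, 73 (0.473%) were at least 1.5 times higher in CxB and 96 (0.622%) at least 1.5 times higher in BxC, and 0 of the 8 members were among either. The CxB over BxC ratio of RPM was 1.02 for Wars, 1.05 for Slc25a29, 1.03 for Pld4, 0.974 for Capns1, 0.962 for Mtap6, 0.918 for Tbcb and 0.879 for Rps3. Nudt14 was at 0.769, the furthest from 1 with reads on both strands counted. With reads on the strand of the gene alone Pld4 came close to it, with a log2 ratio of -0.39 against -0.40 for Nudt14. Over distinct positions the order did not hold, and Pld4 was the furthest.

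Nudt14 encodes a Nudix hydrolase that cleaves UDP-glucose and related nucleotide sugars. It held 1326 exonic reads in BxC and 868 in CxB, or 10.3 and 7.91 RPM. Its log2 ratio of CxB over BxC was -0.38 (-0.50 to -0.25), at percentile 2.58 of the 15427 genes, of which the middle 90% ran from -0.29 to 0.28. Its intron reads, 355 and 225, gave -0.42 (-0.67 to -0.18). When reads at the same position were counted once, 280 and 229 positions remained and the log2 ratio was -0.07. The ceiling that exon length sets on positions can raise this value, by an amount that was not tested. In bulk tissue, fewer cells of a type and less RNA per cell cannot be told apart.

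Rps3, a protein of the small ribosomal subunit at the entry of the mRNA channel, had a log2 ratio of -0.19 (-0.22 to -0.16) on 22130 and 16546 reads. The median over the 34 annotated small subunit genes was -0.13. For Tbcb the log2 ratio was -0.12 (-0.17 to -0.08), and for Mtap6 it was -0.06 (-0.08 to -0.04). The counting intervals of these 3 did not include 0, and that of Capns1, -0.04 (-0.07 to -0.00), reached its edge. Those of Wars, 0.03 (-0.01 to 0.08), Slc25a29, 0.08 (-0.04 to 0.20), and Pld4, 0.05 (-0.16 to 0.25), included 0. As reads were not independent and each cross had 1 library, such intervals do not show which members differ between the crosses. Over distinct positions, scaled to the total of each library (31613696 and 27132743), 5 members had the opposite sign. Their log2 ratios were 0.11 for Capns1, 0.04 for Tbcb, 0.04 for Mtap6, 0.08 for Rps3 and -0.24 for Pld4. The ceiling set by exon length draws the position counts of densely covered genes together. As CxB has fewer positions in total, this can raise their ratio, so the signs of Capns1, Tbcb, Mtap6 and Rps3 do not show a direction. Intron reads gave other ratios than exonic reads in several members. Those of Wars, 1370 and 942, gave a log2 ratio of -0.31 (-0.43 to -0.19), and those of Capns1, 688 and 690, gave 0.24 (0.08 to 0.39). In Tbcb, with 0.14 (0.01 to 0.26), and Mtap6, with 0.10 (0.07 to 0.14), the intron ratio had the opposite sign to the exonic ratio and neither interval included 0.

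**Figure D2:**
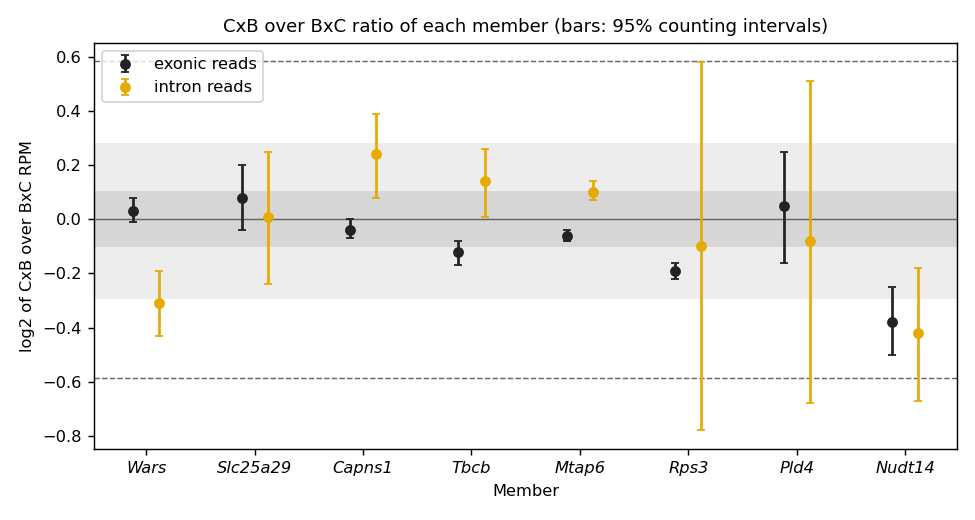
log2 of the CxB over BxC ratio of RPM for exonic reads (black) and intron reads (yellow) of each member, with 95% counting intervals. Grey bands hold the middle 50% and 90% of 15427 genes and dashed lines mark the ratio of 1.5. The exonic point of Nudt14, at -0.38, lies below the wider band and the other 7 exonic points lie inside it.

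To see what kind of RNA the reads came from, each read in the span of a member was put into a single class. A read that touched no exon was an intron read, and a read split over a splice site was a junction read. Rps3 was close to fully spliced, with 44 and 35 intron reads, or 0.198% (0.144 to 0.266) and 0.211% (0.147 to 0.293) of its reads. Capns1 followed with 4.56% and 5.47%. With the exons of protein-coding transcripts alone these shares were 0.559% and 0.579% for Rps3 and 9.28% and 10.8% for Capns1, and that of Mtap6, given next, was 54.2% and 56.1%. Pld4 had 11.7% and 10.8%, Tbcb 11.1% and 13.0%, and Wars 12.9% and 10.5%. The highest shares belonged to Slc25a29, with 303 of 1514 and 259 of 1346 reads, Nudt14, with 21.1% and 20.6%, and Mtap6, with 25.4% and 27.5%. Across 14600 multi-exon genes the median was 20.3% in both libraries, so these last 3 lay near the middle and Rps3 at percentile 1.77 and 1.78. Over distinct positions the intron shares were higher, at 2.27% and 2.49% for Rps3, 30.7% and 29.3% for Slc25a29 and 48.8% and 48.7% for Mtap6, and Tbcb, at 32.8% and 32.1%, passed Slc25a29. That unit holds down densely covered exons more than sparse introns, so its higher shares do not show more intron RNA. All these shares depend on intron length, which was 62733 bases in Mtap6 and 1360 in Rps3. Per kilobase, exon reads over intron reads gave another order. The lowest value was that of Slc25a29, 11.4 and 11.9, and Wars, at 60.2 and 76.2, exceeded Capns1, at 50.9 and 42.0.

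Junction reads put Rps3 and Capns1 at the top, and Slc25a29, Mtap6 and Nudt14 at the bottom. They made up 27.9% and 27.6% of the exonic reads of Rps3, 20.3% and 19.7% of those of Capns1, and 12.4% and 14.2% of those of Wars. Tbcb had 958 junction reads of 8701 exonic reads in BxC and 691 of 6793 in CxB. Pld4 had 5.19% and 5.63%, Slc25a29 3.63% and 3.31%, Mtap6 2.98% and 2.73%, and the median over genes was 7.24% and 7.06%. Nudt14 had the fewest, 22 of 1326 and 13 of 868, and 1082 and 728 of its exonic reads lay in its last exon. The share depends on how many junctions a transcript has per exonic base and on where the reads lie. Its order therefore does not rank how fully the members were spliced.

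**Figure D3:**
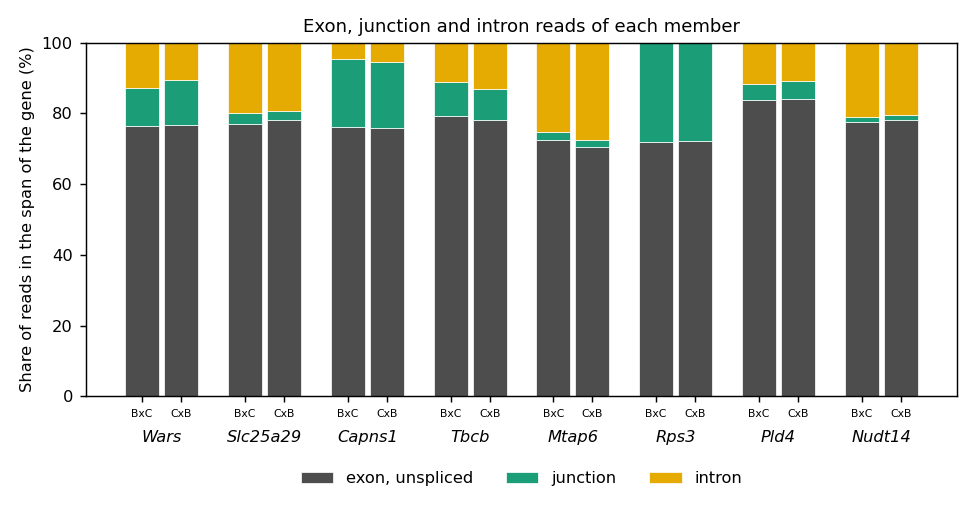
Share of the reads in the span of each member, in percent, that were unspliced exon reads (grey), junction reads (green) or intron reads (yellow), as stacked bars for BxC and CxB. Rps3 has almost no intron reads (0.198% and 0.211%), and Mtap6 has the largest intron share (25.4% and 27.5%).

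Wars and Slc25a29 lie on the minus strand of chromosome 12, 24.1 kb apart, with the microRNA gene Mir345 and the carrier gene Slc25a47 between them. Wars encodes the cytosolic tryptophanyl-tRNA synthetase, which charges tRNA with tryptophan, and Slc25a29 a carrier of basic amino acids in the inner mitochondrial membrane. Wars (ENSMUSG00000021266.10) spans chr12:110098240-110132384 in mm9 and held 9256 and 8055 exonic reads. Slc25a29 (ENSMUSG00000021265.3) spans chr12:110064083-110074093 and held 1211 and 1087.

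Wars reads were densest at the 5′ end. Its first exon stood at 90.1 and 98.0 RPKM, its exon 7 at 13.1 and 15.3, and its last exon at 21.1 and 20.8. These exon values count any read that overlaps the exon, which raises those of exons not much longer than a read. Wars has alternative first exons in the annotation. The junction from the distal first exon to exon 3 had 705 and 695 reads, and the junction from the proximal one had 2 and 0. The proximal exon itself held 3 reads and 1 read. A junction outside the annotation, from the distal first exon to exon 4, skipping exon 3, had 7 and 2 reads. Of the 14 annotated Wars introns, 9 had junction reads in both libraries. Slc25a29 was most covered at its first exon too, at 12.2 and 15.2 RPKM, against 3.40 and 3.45 in its last exon of 1616 bases. All 3 of its introns had junction reads, 44 and 36 in sum.

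Among 21 aminoacyl-tRNA synthetase genes Wars ranked 6th by level in BxC and 5th in CxB, next to Sars at 23.4 and 21.0 RPKM and Hars at 18.1 and 16.9. Kars was the highest, at 43.5 and 40.4, and Wars2, the mitochondrial tryptophan enzyme, the lowest at 1.01 and 1.18. None of the 21 passed the ratio of 1.5 in either direction. Slc25a29 ranked 2nd of 7 carriers of carnitine and basic amino acids, below Slc25a20 at 9.76 and 11.5 RPKM and above Slc25a15 at 1.83 and 1.78. Its neighbour Slc25a47 stood at 0.781 and 0.710. Of these carriers 5 had the minimum of 100 reads in each library, and none of them passed the ratio.

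The bases between Wars and Slc25a29 that belong to no annotated gene were the most densely covered of the 4 gaps. They had 1870 and 1466 reads over 18.4 kb, or 102 (97.3 to 107) and 79.8 (75.8 to 84.0) reads per kb. Outside genes over the whole genome the density was 8.88 and 7.72 reads per kb, and that of this gap was 11.5 and 10.3 times as high. The genome value takes bases at any distance from a gene, so it is not matched to a gap close to genes. Of the 18.4 kb, 4.06 kb lay more than 5 kb from any gene and held 83.3 and 67.2 reads per kb. Most of the reads outside genes in this gap, 1407 and 1089, fell in the 7.03 kb downstream of Mir345, which lies upstream of Slc25a29. None of the reads outside genes was spliced. The 1.61 kb stretch nearest the 3′ end of Wars held 12 and 8 reads.

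Capns1 and Tbcb lie on the minus strand of chromosome 7, 29 kb apart, with the lincRNA gene Gm17440 between them. Capns1 encodes the small regulatory subunit shared by the classical calpains, which are calcium-dependent proteases, and Tbcb encodes a cofactor that helps fold alpha-tubulin. Capns1 (ENSMUSG00000001794.6) spans chr7:30971961-30980183 and held 14405 and 11935 exonic reads. Tbcb (ENSMUSG00000006095.6) spans chr7:31009150-31017291 and held 8701 and 6793.

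Capns1 reads ran through exon 2, at 122 and 123 RPKM, while its first exon stood at 9.32 and 12.1. The junction that joins exon 2 to exon 4 had 762 and 634 reads, and the junction from the first exon into exon 2 had 8 and 29. Exon 3, which lies between exons 2 and 4, held 13.3 and 13.8 RPKM, and 0 reads in either library joined it to exon 4. Of 12 annotated Capns1 introns 10 had junction reads in both libraries, and 2 introns outside the annotation had 1 read each. In Tbcb, 5 of 6 annotated introns had junction reads, from 28 and 30 at the first to 418 and 305 at the intron before exon 5. Tbcb and the gene Polr2i, a subunit of RNA polymerase II on the other strand, share 325 exonic bases at the 5′ end of Tbcb. Those bases held 1644 and 1151 of the Tbcb reads, and the files do not say which gene they came from. Leaving them out gave 49.0 and 46.0 RPKM for Tbcb, above the 46.6 and 45.4 of Capns1.

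Capns1 was the highest of 10 annotated genes of the calpain list and Tbcb the highest of 6 tubulin cofactor genes. Next to Capns1 came Capn2, the catalytic subunit of calpain 2, at 18.6 and 18.4 RPKM, and the lowest was Capn3, known from muscle, at 0.114 and 0.155. Calpastatin (Cast), the inhibitor of the classical calpains, stood at 0.711 and 0.797. In the calpain list 1 gene, Capn6, passed the ratio of 1.5, with 314 and 175 reads and a log2 ratio of -0.61. Next to Tbcb came Arl2 at 28.5 and 24.1 RPKM, and Tbce was the lowest of that list, at 4.59 and 4.73. None of the 6 cofactor genes passed the ratio.

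The gap between Capns1 and Tbcb was the least densely covered of the 4. Outside genes it had 166 and 159 reads over 26.7 kb, or 6.22 (5.31 to 7.24) and 5.95 (5.06 to 6.95) reads per kb, 0.700 and 0.771 times the genome value. More than 5 kb from any gene, 10 and 24 reads remained over 13.2 kb. Gm17440 held 11 and 12 exonic reads.

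Mtap6 and Rps3 lie 141 kb apart on chromosome 7, tail to tail, with Serpinh1, Gdpd5 and Klhl35 between them. Mtap6 (also called Map6 or STOP) encodes a protein that stabilises neuronal microtubules against cold. Mtap6 (ENSMUSG00000055407.7) spans chr7:106415957-106485647 on the plus strand and held 43439 and 35555 exonic reads, the most of the 8. Rps3 (ENSMUSG00000030744.6) spans chr7:106626406-106632248 on the minus strand and held 22130 and 16546.

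The junctions of Mtap6 and Rps3 show how unevenly reads fell along these transcripts. They are printed 5′ to 3′ on the strand of the gene from the mm9 reference, 12 bases on each side of the splice site, with the end of the upstream exon in lower case and the start of the downstream exon in capitals. The 4 annotated Mtap6 junctions with reads were the following.
Mtap6 exon 1 to exon 2: cagctcttacagGAATGAATTCAG
Mtap6 exon 2 to exon 3: gaatgcccgaagGTAGAGAAACCT
Mtap6 exon 2 to exon 4: gaatgcccgaagGAGCCGGGTCAA
Mtap6 exon 3 to exon 4: tgaggcgaaagaGAGCCGGGTCAA
The junction of exons 1 and 2 had 1194 and 917 reads, whereas that of exons 2 and 3 had 62 and 39. Exon 2 was joined to exon 4, skipping exon 3, in 21 and 5 reads. Skipping thus made up 25.3% of the 83 reads leaving exon 2 in BxC and 11.4% (3.79 to 24.6) of the 44 in CxB, with intervals that overlapped. Exon 3 was joined to exon 4 by 15 and 10 reads, and a junction outside the annotation, from exon 1 to exon 3, had 1 read in each library.

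Few reads left exon 3 across a splice site, and the bases that follow it were densely covered. The 2684 bases that follow exon 3, chr7:106466179-106468862, are exonic only in a transcript annotated as not protein-coding. They held 15633 and 13081 reads, or 45.2 and 44.4 RPKM, against 22.7 and 21.7 in the last exon. Exon 2 stood at 178 and 158 RPKM and exon 3 at 86.1 and 80.3. The intron of 13529 bases before the last exon held 7914 and 7126 reads, or 4.54 and 4.80 RPKM, against 0.758 and 0.857 in the intron of 46375 bases after exon 1.

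The coding exons of Rps3 are joined by these junctions, from 5′ to 3′.
Rps3 exon 1 to exon 2: aagaagaggaagTTTGTAGCTGAT
Rps3 exon 2 to exon 3: tttagccaccagGACACAGAATGT
Rps3 exon 3 to exon 4: ggcagcgtagagCTTTATGCAGAG
Rps3 exon 4 to exon 5: tgcggttcgaagGGCCTGCTATGG
Rps3 exon 5 to exon 6: tcctcagacaggGTGTGCTGGGCA
The first of them had 4769 and 3564 reads, the next 669 and 436, then 111 and 105, then 252 and 167, and the last 372 and 285. Exon 2 was the densest at 660 and 567 RPKM, and exon 4 the sparsest of the 6, with 698 and 500 reads on 95 bases and 48.0 RPKM in CxB. Exon 4 is also where short reads are hardest to place: 46.7% of its 36-base stretches occur once in the genome, against 75.8% in exon 5, 79.0% in exon 6 and 100% in exons 1 to 3. Only uniquely placed reads were kept by the authors' account, and the part of this in the exon 4 values was not tested. The last exon, 1056 bases long, stood at 4.58 and 5.35 RPKM. It was joined to exon 6 by 5 and 3 reads, but of the 35 read-length stretches across that splice site only 8 are absent from the rest of the genome. All 7 annotated Rps3 introns had at least 1 junction read in each library. The snoRNA genes Snord15a and Snord15b lie within Rps3, and 12 and 6 reads fell on exonic bases shared with Snord15b.

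**Figure D4:**
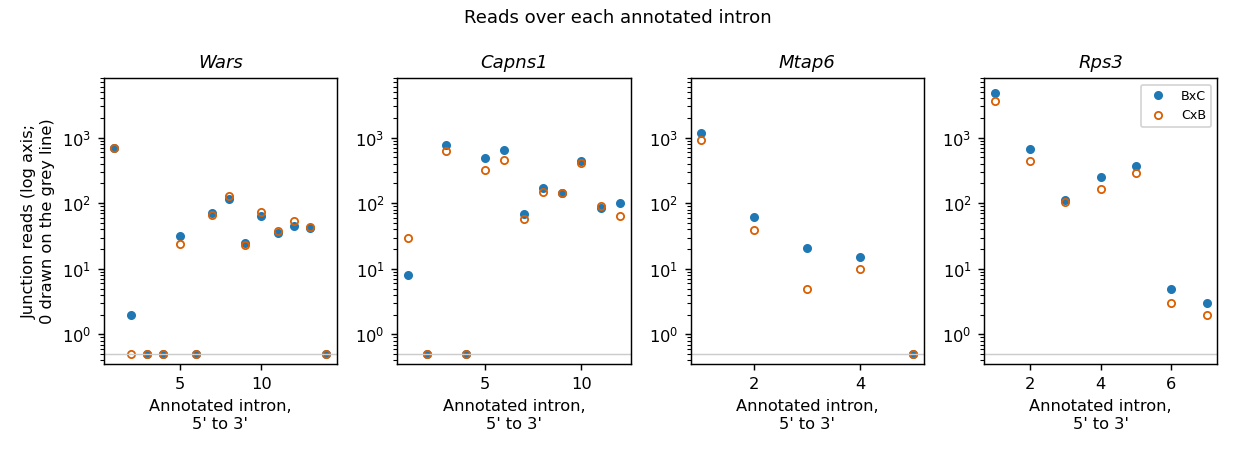
Junction reads over each annotated intron of Wars, Capns1, Mtap6 and Rps3, in order from 5′ to 3′ and counting introns of every annotated transcript, on a log axis. Filled points are BxC, open points CxB, and 0 is drawn on the grey line. In Mtap6 the reads fall from 1194 and 917 over intron 1 to 62 and 39 over the next, and in Rps3 the first intron has 4769 and 3564.

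Among 10 entries of microtubule-stabilising proteins Mtap6 ranked 5th, below Mtap2 at 59.0 and 56.5 RPKM and above Mtap1a at 35.9 and 35.5. Mtap1b was the highest, at 314 and 327, followed by Mapt (tau) at 288 and 275. Mtap4 was annotated as 2 separate entries, at 27.6 and 27.0 RPKM and at 0.140 and 0.179, and 9 of the 10 entries had the minimum of reads in both libraries. Rps3 ranked 13th of the 34 small subunit genes, between Rps23 at 39.7 and 38.5 RPKM and Rps21 at 36.4 and 32.3. Rps19 was the lowest of the family, at 2.86 and 3.31. Many of these genes have near-identical pseudogenes, and the share of exonic read starts that occur once in the genome was 96.5% for Rps3 but 31.3% for Rps23, so their order is uncertain. None of the entries of either list passed the ratio of 1.5.

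The gap between Mtap6 and Rps3 held 28305 and 23239 reads, most of them in genes. Serpinh1, a chaperone of collagen, stood at 30.3 and 29.1 RPKM, Gdpd5, a glycerophosphodiester phosphodiesterase, at 23.1 and 21.4, and Klhl35 at 1.25 and 1.33. Outside genes there were 1758 and 1622 reads, or 38.7 and 35.7 per kb, 4.36 and 4.62 times the genome value. Of these, 1002 and 923 lay in the 14.2 kb nearest the upstream end of Gdpd5, most of them close to that end. The last 1 kb bin wholly before Gdpd5 held 0.473 and 0.383 RPM, and the bin with its start 44.5 and 45.0. More than 5 kb from any gene the density fell to 1.42 and 2.07 reads per kb. The 4.12 kb nearest the 3′ end of Mtap6 held 40 and 78 reads, and the 1.94 kb nearest that of Rps3 held 48 and 47.

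Pld4 and Nudt14 lie 166 kb apart on chromosome 12, tail to tail, with 6 annotated genes between them. Pld4 belongs to the phospholipase D family, acts as an exonuclease on nucleic acids in lysosomes and is known from microglia and other myeloid cells. Pld4 (ENSMUSG00000052160.6) spans chr12:113998866-114007197 on the plus strand and held 424 and 373 exonic reads, the fewest of the 8. Nudt14 (ENSMUSG00000002804.3) spans chr12:114172944-114180329 on the minus strand.

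Pld4 reads were thin along the whole gene. Its 11 exons ran from 0.674 to 3.71 RPKM in BxC and from 0.382 to 2.93 in CxB, with the highest at exon 8 in both. Its 10 introns had 22 and 21 junction reads in sum, and 5 of them had reads in both libraries. A single position held 10 of the 424 reads in BxC and 32 of the 373 in CxB. The 11 microglial genes ran from 0.111 RPKM for Ptprc to 6.93 for C1qa in BxC and from 0.125 to 8.13 in CxB, and their part in the level of Pld4 was not tested. In the phospholipase D family Pld4 ranked 4th of 6, below Pld6 at 3.54 and 2.83 RPKM and above Pld1 at 0.848 and 0.849. Pld3, which shares its exonuclease activity, was the highest at 42.0 and 41.3, and none of the 6 passed the ratio.

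Nudt14 reads were concentrated at the 3′ end. Its last exon stood at 26.4 and 20.9 RPKM, with 1082 of the 1326 and 728 of the 868 exonic reads, while its other 4 exons ran from 1.67 to 5.41 in BxC and from 2.10 to 3.33 in CxB. All 4 of its introns had junction reads in both libraries, 21 and 11 in sum, and 1 and 2 reads joined exon 3 to exon 5, a junction outside the annotation. Among 22 Nudix genes Nudt14 ranked 6th, below Nudt9 at 13.1 and 11.9 RPKM and above Nudt16 at 7.93 and 6.90. Nudt3 was the highest, at 101 and 110. Of the 22, 20 had the minimum of reads in both libraries and none of them passed the ratio.

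Outside genes the gap between Pld4 and Nudt14 had 2060 and 1845 reads, or 23.9 and 21.4 per kb, 2.69 and 2.78 times the genome value. Of these, 1311 and 1107 lay in the 6.61 kb downstream of Jag2, a ligand of Notch receptors that itself stood at 14.1 and 14.3 RPKM. Most of them lay close to its end: the 1 kb bin that reaches Jag2 held 10.6 and 10.7 RPM, and the bin before it 0.0776 and 0.0456. More than 5 kb from any gene, 91 and 140 reads remained over 37.4 kb, or 2.44 and 3.75 per kb. The 1.60 kb nearest the 3′ end of Pld4 held 0 reads in both libraries, which allows up to 3 reads in each. Among the other genes of the gap, Cdca4 stood at 13.7 and 11.7 RPKM, BC022687 at 3.98 and 3.79, Ahnak2 at 0.502 and 0.423 and Gpr132 at 0.0191 and 0.00747, and Gm17723 had 0 exonic reads.

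**Figure D5:**
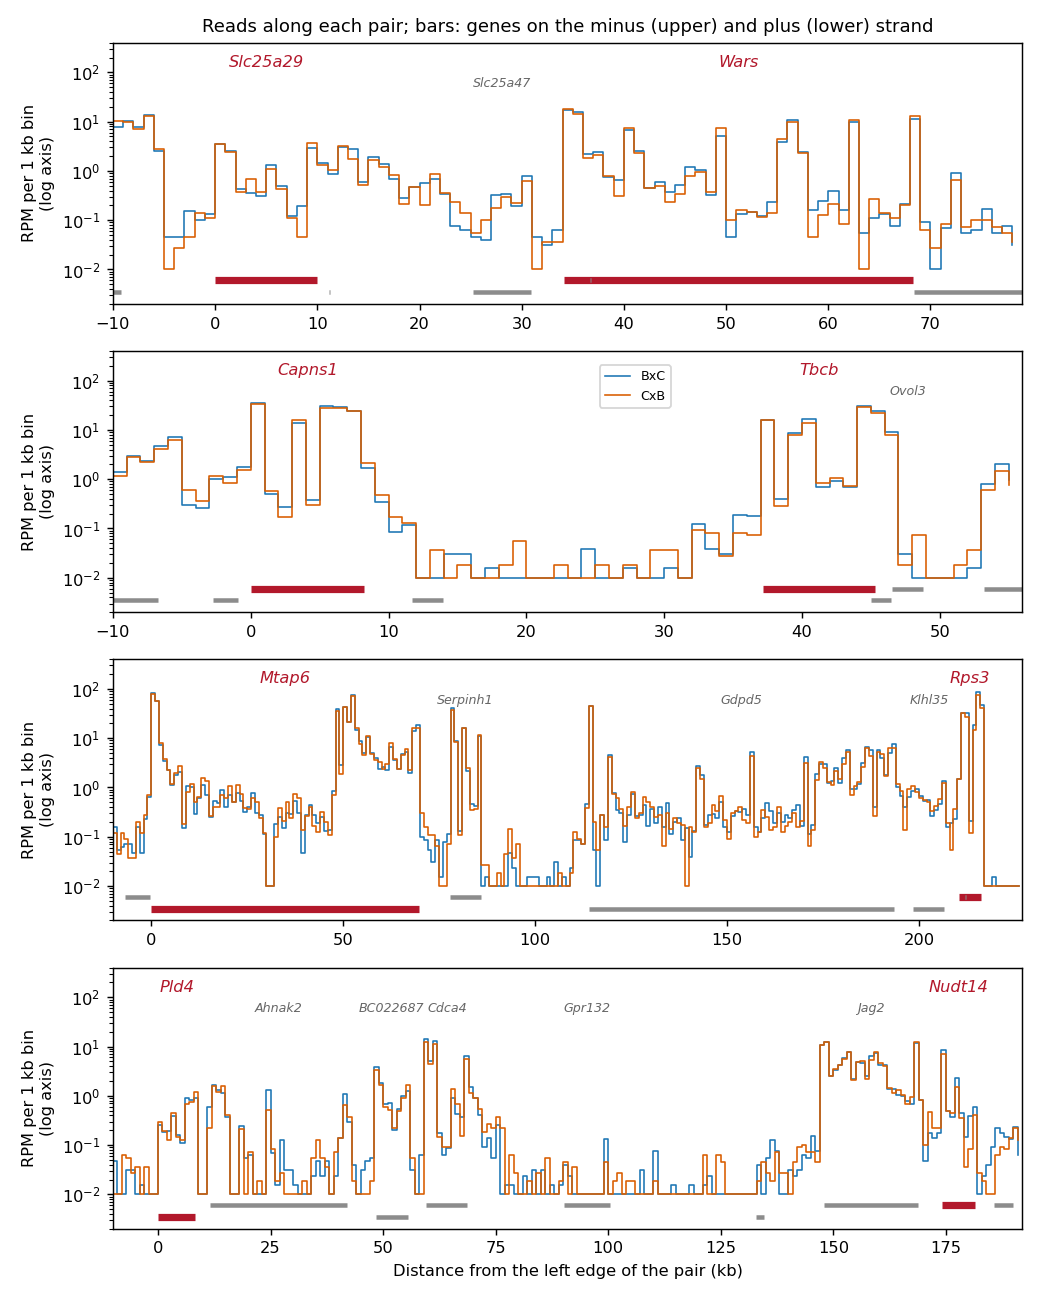
RPM in bins of 1 kb along each pair, on a log axis, against the distance in kb from the left edge of the pair, with bins below 0.01 drawn at 0.01. Blue is BxC and orange CxB. Red bars are the members and grey bars other annotated genes. Most bins between Capns1 and Tbcb lie near the lower limit of the plot, while those beside Slc25a29 and within Gdpd5 and Jag2 do not.

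Wars and Pld4 are the 2 members for which the study designed an assay of allelic expression at a single-base difference between the strains. Both positions lie in coding exons, that of Wars at chr12:110104301 in exon 9 of 11 and that of Pld4 at chr12:114003292 in exon 6 of 11. The reference base is in capitals in these stretches of mm9, printed 5′ to 3′ on the strand of the gene, and the sequencing primers are those of the assay.
Wars position: cctgccctgcagggCgctcagaccaagat
Wars sequencing primer: gcactcatcttggtctg
Pld4 position: tggatgggcgacacAtctacgtgggcagt
Pld4 sequencing primer: gttgtggatgggcga
The Wars primer matches the opposite strand of the gene and the Pld4 primer the same strand, and the amplified stretches were 69 and 108 bases long. At the Wars base there were 214 reads (186 to 245) at 30 positions in BxC and 255 (225 to 288) at 33 positions in CxB. At the Pld4 base there were 6 reads (2.20 to 13.1) and 2 (0.242 to 7.22). Every read-length stretch over either base occurs once in the genome.

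The strand of the reads carried little information. Over all genes 43.6% and 43.1% of exonic reads lay on the strand of the gene, although the methods describe a strand-specific preparation, so reads on both strands were counted and overlapping genes could not be separated by strand. Wars had 44.9% and 44.2% of its reads on its own strand, Slc25a29 44.4% and 44.3%, Capns1 42.0% and 42.2%, Tbcb 46.9% and 45.8%, Mtap6 44.0% and 43.0%, Rps3 46.8% and 46.3% and Nudt14 53.4% and 52.4%. Pld4 had 42.5% (37.7 to 47.3) and 31.4% (26.7 to 36.3), which was below the 5th percentile of all genes, 33.3%, in CxB only. In that library 1 position held 32 of its 373 reads, and over distinct positions the share was 45.5%.

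Reads outside genes were also counted within 10 kb of each member. Downstream of Slc25a29, towards the gene Yy1, there were 4546 and 3693, or 492 and 400 per kb, and in the plot of reads along each pair they lie at the far end of that stretch. Downstream of Capns1, where the 3′ end of Cox7a1 lies 913 bases away, there were 1632 and 1291. The 1 kb bin next to Capns1 held 1.80 and 1.51 RPM. The bin that starts 6 kb away, past Cox7a1 and towards the end of the gene Gm5113, held 7.06 and 6.38. Upstream of Rps3 there were 3 and 0 reads over 10 kb, and upstream of Pld4 18 and 26. Mtap6 had 29.7 and 27.6 per kb upstream and 8.62 and 10.8 downstream, and Nudt14 had 50 and 44 reads upstream and 176 and 199 downstream. Wars begins 97 bases from Wdr25, a gene on the other strand, and Mtap6 begins 228 bases from Gm16890.

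Across the 8 members 61 introns were annotated. Of these, 49 had junction reads in BxC, 50 in CxB and 47 in both, and 8 introns outside the annotation had 13 and 6 reads in sum, against 12573 and 9788 over annotated introns.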

How the data were processed

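Poly(A)+ RNA of 1 BxC and 1 CxB whole brain was sequenced by the authors to 36 bases. The submitters' processing notes name Novoalign and mm9, without a version. The authors describe keeping uniquely aligned reads, and which of their alignments was deposited is not stated. The deposited files list aligned blocks with a whole number on each line, which was taken, from its values, as a count of reads. No normalization had been applied, and 0 columns were left unassigned.

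Reads were summed over genes of GENCODE vM1, which uses mm9 coordinates. Chromosome names matched, and alignments lay within the reference length on 21 of 22 chromosomes in each library, the exception being chromosome 9. A read counted for a gene where any block overlapped its exons by at least 1 base, on either strand. Genes needed 100 reads in each library. Intervals are exact Poisson, Clopper-Pearson or conditional binomial at 95%. Python 3.11.15 with numpy 2.4.6, pandas 2.3.3, scipy 1.17.1 and numba 0.67.0 was used. In Poisson counts simulated for the CxB over BxC ratio of 15427 genes, 95.5% of intervals held the true value and 100% of 200 genes changed by 1 on the log2 scale were called. The simulation held no PCR copies and no difference between embryos. It therefore checks the calculation only, and not how well the intervals cover the spread in these data. Genes named are the 8 members, the annotated genes between them, and fixed family and marker lists. The ribosomal list was narrowed by symbol to the small subunit genes. The members and lists were chosen with earlier results of these data known. Junctions, intervals and primers came from the reference genome and the study's supplement. Alternatives were counts of distinct positions, strand, interval, overlap, length, scaling, read minimum, ratio, 5 kb margins and exon sets. Some items of these lists are not reported here.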

Additional observations from a re-analysis of the deposited data

How the results depend on the processing

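No paired analysis was possible because each cross has 1 library, so the crosses share fewer than 2 replicate numbers, and for the same reason no replicate could be left out. Pair differences below are means of both libraries, as log2 of the first gene over the second. Over distinct positions, with lines at the same position merged, the difference was 1.52 for Wars and Slc25a29 (2.51 with all reads), 1.63 for Mtap6 and Rps3 (0.40) and -1.61 for Pld4 and Nudt14 (-2.75). With those positions the median intron share of the members was 28.9% (11.9%) and the median share on the strand of the gene 50.3% (44.4%). The depth at the Wars base, summed over both libraries, was 63 (469). The gaps, in the order of the pairs, held 46.9, 3.95, 11.7 and 9.88 positions per kb (90.8, 6.08, 37.2 and 22.7 reads per kb). Reads on the strand of the gene alone turned Capns1 over Tbcb from 0.04 to -0.10 and gave 0.30 for Mtap6 and Rps3 and -3.29 for Pld4 and Nudt14. The whole interval gave 1.00, 0.72, -2.10 and -1.77 in the order of the pairs, so that Mtap6 over Rps3 reversed, and requiring all blocks inside exons gave 0.00 for Capns1 and Tbcb. Of the alternatives chosen after seeing the data, exons of protein-coding transcripts gave 2.43, 0.45 and, reversed, -0.52 for the first 3 pairs, and leaving out bases of other genes gave -0.05 for Capns1 and Tbcb, reversed, and 0.36 for Mtap6 and Rps3. The cause of these reversals was not tested, apart from the bases each choice adds or removes. More than 5 kb from any gene the gaps held 75.2, 1.28, 1.75 and 3.09 reads per kb. Genes past the ratio of 1.5 numbered 73 higher in CxB and 96 higher in BxC, of 15427. They were 473 and 463 of 18489 genes with a minimum of 20 reads, and 10 and 22 of 11975 with 500. At a ratio of 2 they were 11 and 10 of the 15427. Over distinct positions they were 4 and 19, and on the strand of the gene 34 and 61. In these last settings the minimum applied to the reduced counts, so fewer genes could enter. Under each of these settings 0 members were past the ratio. Pld4, with 424 and 373 reads, fell below the minimum of 500. Depth limits Pld4, whose assayed base had 6 and 2 reads.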
